A study of Mus musculus with 6 samples.

Results

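The Hedgehog receptor and effector genes and Gas1, which encodes a Hedgehog co-receptor, were followed across 6 regions of mouse cholangiocarcinoma. Members were taken by gene symbol from a named set of 9 genes, and 7 of these 9, among 13264 measured targets, had a row: Gas1, Boc, Cdon, Ptch1, Hhip, Smo and Gli1. Gli2 and Gli3 are not analysed here. Gas1 was chosen by its scaled signal, which was called lower in floxed than in control regions in earlier work on these data, and the other genes were added because they act in the same pathway. The floxed-against-control values of all 7 genes are therefore a description: their p-values are not printed, and their calls and 95% intervals, which are for single genes and not adjusted, support nothing.

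The tumours were cholangiocarcinomas of the SB mouse cell line, and frozen sections were profiled on the GeoMx platform, where light cuts barcode tags off bound probes in a chosen area for sequencing. Within each area only the Desmin-positive, CD45-negative surface was collected, which the study takes as fibroblasts and activated stellate cells. The 3 floxed regions (areas 11 to 13) came from Cd274F/FCol1A1Cre mice, with both alleles of Cd274 flanked by loxP sites, and the 3 control regions (areas 14 to 16) from Cd274+/+Col1A1Cre mice, with intact Cd274. Both groups carry the Cre, whose driver is the Col1a1 promoter, so recombination is limited to cells that have used that promoter, and other cells in the mask keep the gene. Cd274 codes for PD-L1, which restrains T cells through PD-1, and the comparison asks how the stroma differs where fibroblasts carry the floxed alleles. The sources used here give neither the age of the mice nor how the positions of the regions were picked. All 6 regions lay on 1 slide per the column headers, with each genotype in its own block of areas, so genotype and block cannot be told apart. The labels do not say which mouse each region came from, so some of a group may come from the same mouse, in which case every p-value below is too small.

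Hedgehog ligands are secreted proteins that bind Patched 1 (Ptch1), and this binding frees Smoothened (Smo) to act at the primary cilium. Active Smoothened switches the Gli transcription factors, and Gli1, Ptch1 and Hhip are themselves classical target genes, of which Ptch1 and Hhip feed back to restrain the pathway. Gas1, Boc and Cdon are cell surface proteins that hold the ligand for Patched 1, and Gas1 was named as a gene that fibroblasts switch on in growth arrest. In injured liver, Hedgehog ligands made by bile duct cells and other cells are known to act on stellate cells and fibroblasts, and in biliary cancer the ligands can pass from tumour cells to the surrounding stroma.

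Promoter sequences are shown for Gas1, the co-receptor gene that was chosen by its signal. They are also shown for a pair of feedback genes of the pathway, Ptch1 and Hhip, whose values are described beside it. Each is 300 bases, from 250 before to 50 after the annotated start, on the strand of the gene, taken from RefSeq on GRCm38.p6. Capitals mark CCAAT or its reverse complement and the GC box GGGCGG or its reverse complement. The Gas1 window is chr13:60177486-60177785 (minus strand), the Ptch1 window chr13:63565686-63565985 (minus strand) and the Hhip window chr8:80057959-80058258 (minus strand).
Gas1: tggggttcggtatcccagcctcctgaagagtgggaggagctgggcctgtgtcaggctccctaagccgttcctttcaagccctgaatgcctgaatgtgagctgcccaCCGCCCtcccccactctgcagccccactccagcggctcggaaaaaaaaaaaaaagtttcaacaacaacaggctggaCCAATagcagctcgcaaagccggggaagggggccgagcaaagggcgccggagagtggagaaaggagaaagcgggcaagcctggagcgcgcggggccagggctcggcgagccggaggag
Ptch1: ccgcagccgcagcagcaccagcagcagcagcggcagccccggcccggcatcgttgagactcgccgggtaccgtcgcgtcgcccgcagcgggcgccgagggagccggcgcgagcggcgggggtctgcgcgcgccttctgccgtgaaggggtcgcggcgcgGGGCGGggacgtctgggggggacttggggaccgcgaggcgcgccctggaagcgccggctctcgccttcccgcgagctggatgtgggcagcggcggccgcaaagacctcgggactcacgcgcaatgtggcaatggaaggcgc
Hhip: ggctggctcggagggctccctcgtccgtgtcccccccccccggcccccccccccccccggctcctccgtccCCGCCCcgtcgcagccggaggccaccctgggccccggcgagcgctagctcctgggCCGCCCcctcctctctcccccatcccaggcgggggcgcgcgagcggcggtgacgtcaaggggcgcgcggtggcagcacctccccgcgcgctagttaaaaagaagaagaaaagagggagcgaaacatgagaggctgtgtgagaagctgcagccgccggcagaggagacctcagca
The Gas1 window held 1 CCAAT and 1 GC box, the Ptch1 window 1 GC box and the Hhip window 2 GC boxes. Of all 32851 promoter windows in the table, 37.4% held a CCAAT and 35.7% a GC box on either strand. The Gli binding sequence GACCACCCA was in none of the 5 windows found for the 7 genes (Gas1, Cdon, Ptch1, Hhip and Smo) on either strand, and in 0.253% of all windows. The interferon-related sequence TTCNNNGAA, the interferon-stimulated response element, and the TATAA box, were in none of the 5 windows either, against 8.3%, 3.44% and 24.9% of all windows. GC content was 62.3% in the Gas1 window, 76.3% in the Ptch1 window and 73.7% in the Hhip window.

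Signal is given on a scale where all regions have the same upper quartile (Q3, the value that 75% of targets lie below), and its ratio to the negative probe, which matches no mouse transcript, is given beside it. Before scaling, the summed signal of a region was 223253 to 393615 in the floxed and 720786 to 1024180 in the control regions. Floxed region 2 had the lowest sum. After scaling, the negative probe read 4.77, 6.97 and 5.39 in floxed regions 1, 2 and 3, against 5.06, 4.86 and 4.76 in control regions 1, 2 and 3. Cd274, the floxed gene, read 11.1, 17.4 and 29.2 in the floxed regions, against 10.6, 14.2 and 13.4 in the control regions. The ranges overlapped, and the sources used here do not say whether the Cd274 probe lies in the deleted part, so the level does not check the labels. Of the proteins behind the mask, Des read 36.5 ± 12.6 in the floxed and 31.4 ± 8.07 in the control regions, and Ptprc, which encodes CD45, read 47.8 ± 15.9 and 26.1 ± 4.63 in the same groups (SD, n = 3 each). Fibroblast collagen signal was strong throughout, with Col1a1 at 202 to 420 times the negative probe in the floxed and 522 to 769 times in the control regions. Stellate cell markers ranged from bright to dim. Cygb, the brightest of them, was at 12.8 to 40.3 times the negative probe in the floxed and 24.4 to 27.1 times in the control regions. Lrat, named outside the fixed rule, lay close to background, at 1.56 to 3.49 times in the floxed and 1.79 to 3.05 times in the control regions. Gfap, also outside the rule, was as dim, at 1.04 to 2.50 and 1.34 to 2.70 times in the same groups.

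Gas1 signal in the floxed regions was 0.329 times that in the control regions. Gas1 read 16.7, 19.6 and 11.2 in floxed regions 1, 2 and 3, against 35.5, 62.6 and 46.3 in control regions 1, 2 and 3. Every floxed region lay below every control region. The group means were 15.8 ± 4.25 in the floxed and 48.1 ± 13.7 in the control regions (SD, n = 3 each), and the log2 change was -1.54 ± 0.29 (SE, 95% interval -2.17 to -0.91). Gas1 was the only 1 of the 7 genes called by limma at an adjusted p under 0.05, against 0.113% of all targets called lower and 0.588% called higher. That call is what brought Gas1 into the set, so nothing is read from the count. Ordered by log2 change, Gas1 had rank 33 from the lowest among the 13264 targets, and its choice on these values fixed a low rank in advance.

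**Figure D1:**
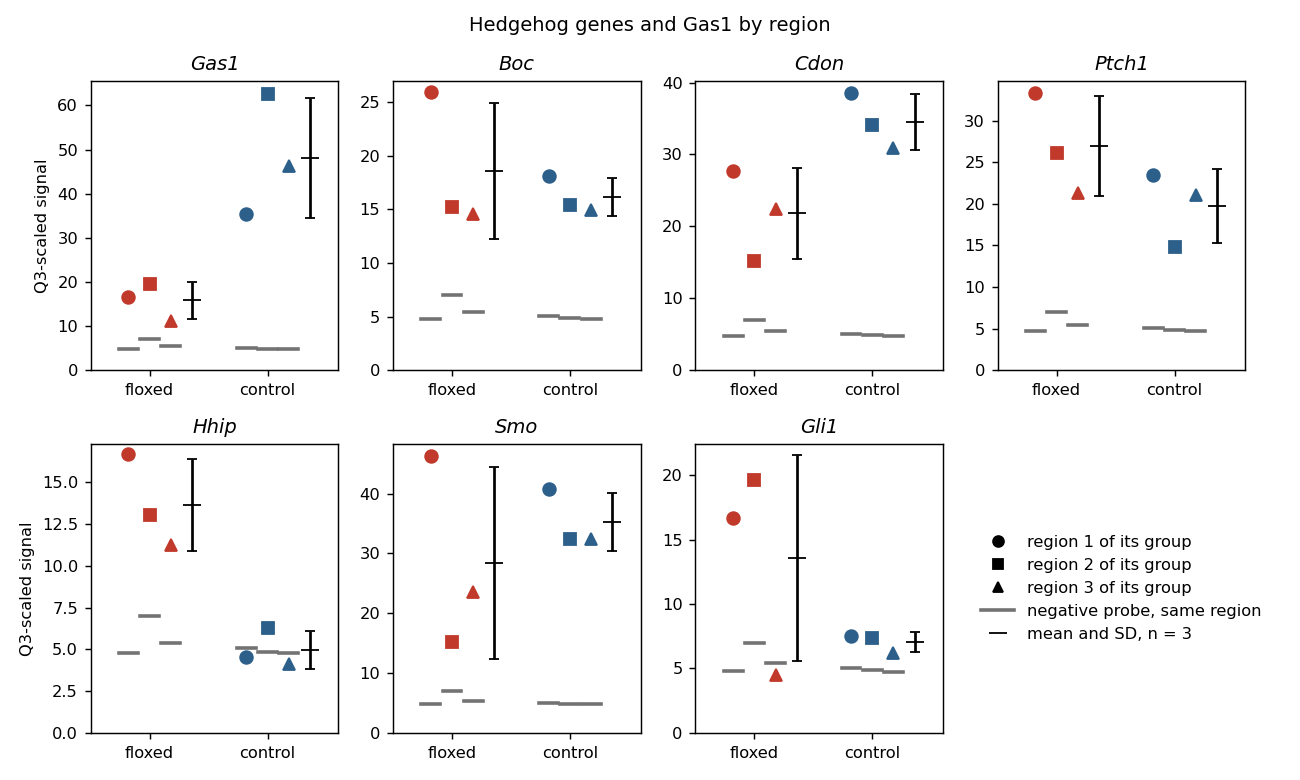
Q3-scaled signal of the 7 genes in the 3 floxed (red, left) and 3 control (blue, right) regions, each panel on its own linear axis from 0, with the mean and SD (n = 3) in black and the negative probe of the same region as a grey bar. Gas1 lies at 11.2 to 19.6 in the floxed and 35.5 to 62.6 in the control regions, and Hhip in the control regions lies on the negative probe.

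Read against background, Gas1 was 3.49, 2.81 and 2.08 times the negative probe in the floxed regions, against 7.01, 12.9 and 9.73 times in the control regions. It thus remained above the negative probe in every region. Almost every value of a region was a whole multiple of a single step, and Gas1 stood at 9, 9 and 10 steps in the floxed regions, against 47, 110 and 90 steps in the control regions. Whether a step is a tag was not established, and with so few steps no order is read among the 3 floxed regions. When each region was omitted once, the log2 change ran from -1.73 to -1.33, and Gas1 was called without floxed region 1 or 2 and not called without floxed region 3 or any of the 3 control regions. These are the values Gas1 was chosen on, so they show how the call depends on single regions and give it no support. Without floxed region 2, whose sum was lowest, the log2 change was -1.72.

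Summed fibroblast marker signal, most of it collagen, separated the groups in the same direction as Gas1. The summed signal of 10 fibroblast markers was 3647 to 5003 in the floxed and 5843 to 8136 in the control regions, with no overlap, and 7 of the 10 had a log2 change below 0, none of them called, while Dpt was called higher (log2 change 1.89, adjusted p 0.00397, limma). In bulk areas of this kind fewer cells of a type and less RNA per cell cannot be told apart. Per 1000 units of that sum, Gas1 read 3.44, 5.37 and 2.24 in the floxed regions, against 6.08, 7.70 and 6.21 in the control regions, and the groups still did not overlap. This ratio was 0.553 times as high in the floxed regions, where the unadjusted signal was 0.329 times as high. The sum is mostly Col1a1, Col1a2 and Col3a1. Without them, the 7 other markers summed to 464 to 1003 in the floxed and 403 to 699 in the control regions, with overlap. Per 1000 units of this sum, Gas1 read 16.6, 34.5 and 24.2 in the floxed regions, against 88.2, 107 and 66.2 in the control regions. This second ratio was 0.288 times as high in the floxed regions, so the 2 ratios lie on either side of the unadjusted 0.329.

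Markers of other cells also differed between the groups. The 10 tumour and bile duct markers summed to 1577 to 3530 in the floxed and 3790 to 6539 in the control regions, without overlap. Much of this sum was Spp1, at 385 to 2332 in the floxed and 1888 to 3794 in the control regions. Of the 10, 7 had a log2 change below 0 and 3 (Epcam, Cldn4 and Cldn7) above it, and none was called. The 5 neutrophil markers summed to 70.3 to 94.2 in the floxed and 119 to 156 in the control regions, also without overlap. The neutrophil sum was carried by S100a8 and S100a9, both called lower (limma), while Mmp9, Cxcr2 and Csf3r had log2 changes of 0.50, 0.39 and 0.16 and the median of the 5 was 0.16. The 7 T and NK cell markers summed to 74.0 to 164 in the floxed and 51.4 to 62.7 in the control regions, also without overlap. All 7 had a log2 change above 0, and 0 were called. Their control means were only 1.43 to 2.22 times the negative probe, close to background. As deposited, 6 of the 7 lay below 0, and the groups overlapped for all 7. The 5 B and plasma cell markers summed to 421 to 4100 in the floxed and 43.8 to 69.4 in the control regions, again without overlap. Sums of the stellate (280 to 494 in floxed, 365 to 419 in control), endothelial (130 to 237 in floxed, 113 to 341 in control), hepatocyte (2859 to 9330 in floxed, 3984 to 5167 in control) and macrophage lists (407 to 653 in floxed, 249 to 514 in control) overlapped. So did those of the mesothelial list (355 to 482 in floxed, 401 to 514 in control) and the smooth muscle list (340 to 486 in floxed, 379 to 730 in control). In the macrophage list, 6 of 7 markers had a log2 change above 0, and Lyz2 was called higher (log2 change 1.87, adjusted p 0.0150, limma). No marker was at 0 in any region. The part of these cells in the values of Gas1 and the Hedgehog genes was not tested.

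The other co-receptors gave smaller changes, an order that the choice of Gas1 on its change makes likely. Their difference from Gas1 was not tested. Cdon, an immunoglobulin-family surface protein that binds Hedgehog ligand beside Gas1, read 27.8, 15.2 and 22.4 in the floxed regions, against 38.5, 34.2 and 30.8 in the control regions. Again every floxed region lay below every control region, as it did for 9.08% of all targets. The means were 21.8 ± 6.28 and 34.5 ± 3.85 in the floxed and control regions (SD, n = 3 each), with a log2 change of -0.67 ± 0.27 (SE, 95% interval -1.25 to -0.09, for the single gene and not adjusted), and Cdon was not called. Per 1000 units of all 10 fibroblast markers, Cdon read 4.80 ± 0.82 in the floxed and 4.98 ± 1.40 in the control regions (SD, n = 3 each), so on that ratio the ranges overlapped. Without the collagens in that sum, Cdon read 34.3 ± 12.2 in the floxed and 66.1 ± 26.6 in the control regions (SD, n = 3 each), 0.519 times as high in the floxed regions, and the ranges overlapped as well.

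Boc, the close relative of Cdon, showed no separation. It read 25.9, 15.2 and 14.6 in the floxed regions, against 18.1, 15.4 and 14.9 in the control regions. Floxed region 1 was the highest of all 6, and the other 5 lay within a narrow range. The log2 change was 0.15 ± 0.30 (SE), and its 95% interval of -0.50 to 0.80 holds changes in either direction. Without floxed region 2, Cdon changed by -0.45 and Boc by 0.26.

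Ptch1, the receptor that ligand binding silences and a target gene of the pathway, did not separate the groups. Ptch1 read 33.3, 26.1 and 21.3 in the floxed regions, against 23.4, 14.8 and 21.1 in the control regions. The ranges overlapped, with floxed region 3 between the control values. The means were 26.9 ± 6.04 in the floxed and 19.8 ± 4.45 in the control regions (SD, n = 3 each), and the log2 change was 0.43 ± 0.27 (SE, 95% interval -0.17 to 1.03). It was 0.27 without floxed region 1 and 0.24 without control region 2. Ptch1 was 3.75 to 6.98 times the negative probe in the floxed and 3.05 to 4.63 times in the control regions. Per 1000 units of all 10 fibroblast markers it read 6.87, 7.16 and 4.26 in the floxed regions, against 4.01, 1.82 and 2.83 in the control regions, without overlap. That sum was itself 0.63 times as high in the floxed regions, so a gene with equal signal in both groups reads higher there on this ratio. Boc read 1.78 times as high on it. The share of all targets without overlap on this ratio was not computed, so nothing about Ptch1 is read from it. Without the collagens in that sum, Ptch1 read 41.7 ± 7.35 and 37.9 ± 17.7 in the floxed and control regions (SD, n = 3 each), with overlap.

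Smo, the membrane protein that relays the signal, varied widely among the floxed regions. It read 46.3, 15.2 and 23.6 in the floxed regions, against 40.8, 32.5 and 32.4 in the control regions. Floxed region 1 was above every control region and floxed regions 2 and 3 were below every control region. The coefficient of variation was 56.6% in the floxed and 13.7% in the control regions. The log2 change was -0.44 ± 0.34 (SE, 95% interval -1.18 to 0.31), and without floxed region 2 it was -0.08, against -0.85 without floxed region 1. In floxed region 2, Smo, Cdon and Boc all rested on 7 steps, and no equality is read from their common value of 15.2.

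The other feedback inhibitor and the transcription factor were at the edge of detection. Hhip, a surface protein that binds and sequesters Hedgehog ligand, read 16.7, 13.1 and 11.2 in the floxed regions, against 4.53, 6.26 and 4.11 in the control regions. Every floxed region lay above every control region, as it did for 10.1% of all targets. In the control regions Hhip was 0.895, 1.29 and 0.865 times the negative probe, that is, at background, and in the floxed regions it was 3.49, 1.87 and 2.08 times. The log2 change was 1.29 ± 0.49 (SE, 95% interval 0.22 to 2.36), its size rests on a background value, and Hhip was not called. As deposited, before scaling, Hhip read 12.6, 5.95 and 8.28 in the floxed regions, against 6.39, 8.82 and 8.14 in the control regions, and the ranges overlapped.

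Gli1, a transcription factor that activates Hedgehog targets and is the usual readout of pathway activity, read 16.7, 19.6 and 4.49 in the floxed regions, against 7.55, 7.40 and 6.17 in the control regions. Floxed regions 1 and 2 were above, and floxed region 3 below, all control regions. Gli1 was 0.832 to 3.49 times the negative probe in the floxed and 1.30 to 1.52 times in the control regions, and it rested on 4 to 9 steps in the floxed and 10 to 13 steps in the control regions. The log2 change of 0.65 ± 0.55 (SE) had a 95% interval of -0.55 to 1.85, which holds changes in either direction. It was 1.26 without floxed region 3, 0.41 without floxed region 1 and 0.30 without floxed region 2.

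Hhip and Gli1 belong to the dimmest targets, and the share of targets above 0 varied with level on this scale. Of the 1108 targets whose mean over all 6 regions was under 2 times the negative probe, among them Hhip and Gli1, 62.7% had a log2 change above 0. The share was 64.6% of the 5395 targets at 2 to 4 times, which include Boc. It was 47.5% of the 4008 targets at 4 to 8 times, which include Gas1, Cdon, Ptch1 and Smo. Of the 2753 targets at 8 times or more, which include no gene of this set, it was 31.4%. Higher in every floxed region than in any control region were 6.50%, 12.6%, 9.9% and 6.68% of these targets, from the dimmest to the brightest. Lower were 2.26%, 3.95%, 9.58% and 21.1%. The differences between these shares, and the part of signal level in the Hhip and Gli1 values, were not tested.

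Over the 7 genes the median log2 change was 0.15, against 0.02 for all targets. Below 0 were 3 of 7 (Gas1, Cdon and Smo), against 47.6% of all targets, and above 0 were 4 of 7, against 52.4%. Within the floxed group, region 1 held the highest value for Boc, Cdon, Ptch1, Hhip and Smo. Within the control group, region 1 was highest for Boc, Cdon, Ptch1, Smo and Gli1 and lowest for Gas1.

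The deposited values, before any scaling, had a log2 change below 0 for 98.5% of all targets. The median log2 change was -1.22, with 74.7% of all targets called lower and 0.158% called higher. Among the 7 genes, 5 were called lower (Gas1, Boc, Cdon, Ptch1 and Smo), which is near that share. Gas1 read 12.6, 8.93 and 8.28 in the floxed regions, against 50.1, 88.2 and 91.5 in the control regions, a log2 change of -2.80 ± 0.41 (SE). Cdon and Smo changed by -1.93 and -1.69, below the median of all targets, and Boc, Ptch1, Gli1 and Hhip by -1.08, -0.83, -0.53 and 0.13, above it. The signs of Boc, Ptch1 and Gli1 turned with the scaling, while their side of the median of all targets was the same on both scales.

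**Figure D2:**
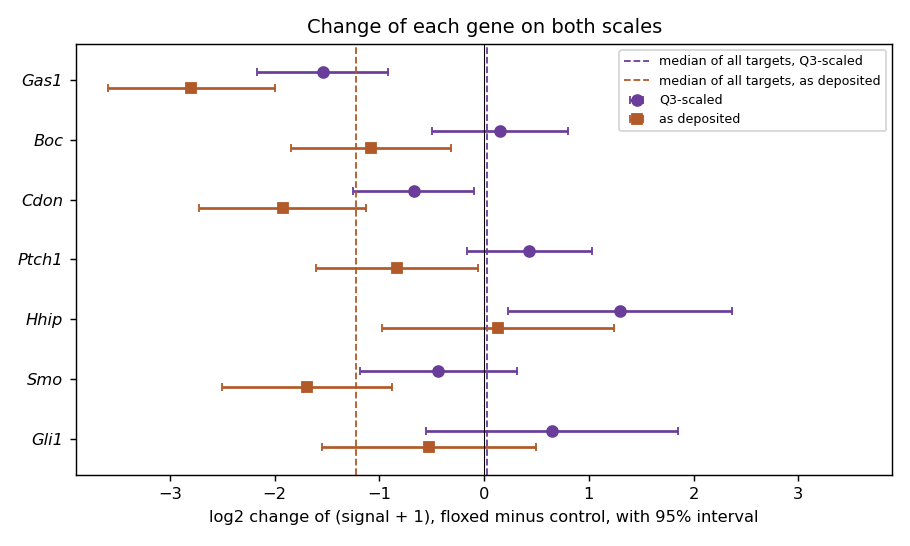
Log2 change (floxed minus control, signal + 1) of each gene with its 95% interval on the Q3-scaled (purple circles) and deposited (brown squares) values, with dashed lines at the median of all targets on each scale. Gas1 lies lowest on both, at -1.54 and -2.80, and the whole set is displaced with the median of -1.22 on the deposited scale.

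The wider pathway was read from lists of ligand processing, relay, cilium and target genes. Of 84 listed genes 70 were measured. None was called higher or lower (limma, adjusted p under 0.05, against 0.701% of all targets called), and 9 of the 70 had an unadjusted p under 0.05, where 1686 of the 13264 targets did. The median log2 change was -0.11, 10 genes were lower and 5 higher in every floxed region than in any control region, against 9.08% of all targets lower and 10.1% higher, and the rest overlapped.

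The ligands Shh, Ihh and Dhh are not analysed here, and of the genes that finish and release them none was called. Hhat, the acyltransferase that adds a fatty acid to the ligand, read 14.0 ± 2.92 in the floxed and 11.7 ± 3.35 in the control regions. Disp1, the transporter that releases the lipid-bearing ligand, read 20.3 ± 8.80 and 22.7 ± 6.14, and Scube1, a secreted helper of release, 20.7 ± 11.0 and 18.0 ± 10.8, in the same groups (SD, n = 3 each). Of the 4 measured genes of this list 2 lay below and 2 above 0.

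Relay genes and inhibitors follow. Of 27 measured, 20 had a log2 change below 0, against 47.6% of all targets, and the median was -0.17, against 0.02 for all targets. In every floxed region 7 were lower and 0 higher (9.08% and 10.1% of all targets). Several of these genes are bright, such as Prkar1a, at 30.3 times the negative probe in the floxed and 49.2 times in the control regions. Of all targets at 8 times the negative probe or more, 21.1% were lower without overlap and 31.4% had a log2 change above 0. The part of signal level in the relay values was not tested. Csnk1e, a casein kinase that phosphorylates signalling proteins of several pathways, read 35.2, 26.1 and 40.4 in the floxed regions, against 72.5, 79.2 and 63.8 in the control regions. The floxed values lay well below the control values, with a log2 change of -1.08 ± 0.24 (SE) and an adjusted p of 0.0702 (limma), which missed the threshold. Over 17 other settings its adjusted p (limma) ran from 1.14e-05, as deposited, to 0.361. On the deposited values 74.7% of all targets were called lower, so the lower end is not particular to Csnk1e. Prkar1a, the regulatory subunit that holds protein kinase A in check, read 165 ± 26.7 in the floxed and 241 ± 10.9 in the control regions, and Btrc, the adaptor that marks phosphorylated Gli proteins for the proteasome, 18.6 ± 2.91 and 29.3 ± 6.42 (SD, n = 3 each). Prkar1a changed by -0.55 ± 0.23 and Btrc by -0.62 ± 0.26 on the log2 scale (SE), neither of them called (adjusted p 0.345 and 0.353, limma). Sufu, the cytoplasmic inhibitor that binds Gli proteins, read 35.2, 30.5 and 33.7 in the floxed regions, against 41.6, 45.6 and 38.6 in the control regions, with an adjusted p of 0.553 (limma). Sufu was named after its values were seen.

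Cilium genes, on which mammalian Hedgehog signalling depends, split both ways. Of 25 measured, 14 lay below and 11 above 0, with a median of -0.06. Kif3a, a motor subunit that carries cargo into the cilium, read 18.2 ± 4.51 in the floxed and 31.1 ± 5.03 in the control regions (SD, n = 3 each). Its log2 change of -0.75 ± 0.27 (SE) missed the threshold (adjusted p 0.271, limma). Tmem67, a membrane protein of the ciliary transition zone, read 16.7 ± 2.55 and 8.11 ± 0.50 (SD, n = 3 each). Its log2 change of 0.95 ± 0.34 (SE) missed it too (adjusted p 0.271, limma), and in the control regions it lay only 1.66 times above the negative probe. Tulp3, which brings receptors into the cilium, read 13.6 ± 5.21 in the floxed and 21.3 ± 1.20 in the control regions (SD, n = 3 each), with no call.

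Genes reported elsewhere as Hedgehog targets also split. Of 14 measured, 9 lay above and 5 below 0, with a median of 0.30, and 4 were higher and 0 lower in every floxed region (10.1% and 9.08% of all targets). Jag2, a Notch ligand, read 24.1, 41.4 and 29.2 in the floxed regions, against 16.6, 14.8 and 20.1 in the control regions. The ranges did not overlap, but the log2 change of 0.82 ± 0.27 (SE) had an adjusted p of 0.243 (limma). Foxf2, a transcription factor of mesenchyme that responds to Hedgehog ligand in the gut, read 16.8 ± 3.46 in the floxed and 8.08 ± 4.26 in the control regions (SD, n = 3 each), with an adjusted p of 0.339 (limma), and in the control regions it lay only 1.63 times above the negative probe. Spp1, which encodes osteopontin and is also made in quantity by bile duct cells, read 2332, 385 and 849 in the floxed regions, against 3794, 2809 and 1888 in the control regions. Floxed region 1 lay inside the control range, and the log2 change of -1.57 ± 0.56 (SE) had an adjusted p of 0.269 (limma). Without floxed region 1, Spp1, Csnk1e and Jag2 passed the threshold, with log2 changes of -2.25, -1.12 and 0.99 and adjusted p of 0.00469, 0.0121 and 0.0366 (limma), in a fit that called 487 targets lower and 537 higher.

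**Figure D3:**
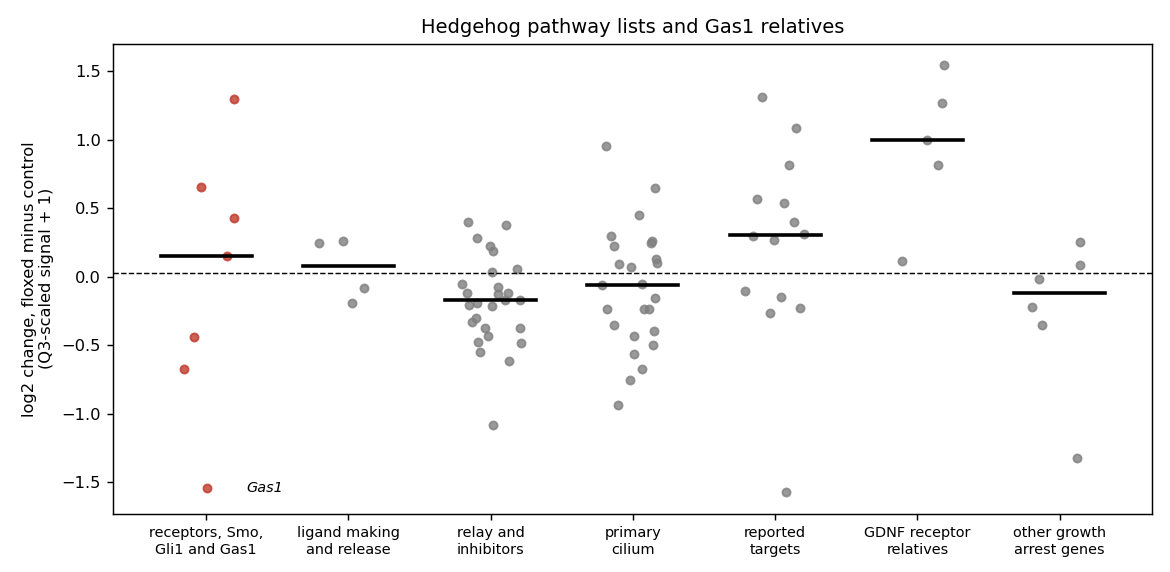
Log2 change of Q3-scaled signal (floxed minus control) for each measured gene of the Hedgehog set (red) and of 6 related lists (grey), with the list median as a black bar and the median of all targets as a dashed line. Gas1, at -1.54, lies at the low end of its set, and the relay list has 20 of its 27 genes below 0, against 47.6% of all targets. Signal level, which differs between genes, is not matched here.

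Gas1 is related in sequence to the GDNF receptor alpha proteins, which bind neurotrophic ligands at the cell surface, and the list of these receptors and their ligands had 5 measured genes, the receptors Gfra1, Gfra2, Gfra3 and Gfra4 and the ligand Pspn (persephin). All 5 lay above 0, with a median of 1.00, and none was called (limma, with 2 at an unadjusted p under 0.05). As deposited, 3 of the 5 lay below 0 and the groups overlapped for all 5. Gfra2 read 24.1, 26.1 and 14.6 in the floxed regions, against 4.53, 9.11 and 6.68 in the control regions. Its log2 change of 1.54 ± 0.39 (SE) was not called (adjusted p 0.117, limma, and 0.0568 to 0.468 over 17 other settings). On the scaled values every floxed region was above every control region for Gfra2, Gfra4 and Pspn, as for 10.1% of all targets. In the control regions the means of these 3 genes were 1.39, 0.846 and 1.99 times the negative probe, close to background, which leaves the size of each change uncertain.

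The other genes that share the growth arrest name with Gas1 but not its structure were mixed. Of 6 measured, 4 lay below 0, with a median of -0.12, and 0 were called (limma, with 1 at an unadjusted p under 0.05). Gas6, a secreted ligand of the Axl family of receptors, read 652, 95.8 and 120 in the floxed regions, against 579, 511 and 403 in the control regions. Floxed region 1 was above every control region and floxed regions 2 and 3 far below, which is the pattern Smo showed, and the log2 change of -1.32 ± 0.55 (SE) had an adjusted p of 0.348 (limma). Gas7 read 19.9 in the floxed and 26.2 in the control regions on average, and Gas8, a component of motile cilia, 22.6 and 18.9.

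Likeness to Gas1 was measured as the root mean square difference between log2 profiles, each centred on its own mean over the 6 regions, among the 11945 targets above the negative probe in every region. The nearest profiles were those of S100a8, at 0.29, Stc1, at 0.30, Deptor, at 0.31, Sort1, at 0.32, and Zfp395, at 0.34. S100a8, one of the neutrophil markers above, encodes a subunit of calprotectin, Stc1 a secreted stanniocalcin, Deptor an inhibitor of the mTOR kinase and Sort1 a sorting receptor. S100a8 read 11.1, 13.1 and 10.1 in the floxed regions, against 29.5, 29.6 and 35.5 in the control regions, and was also called lower (log2 change -1.39 ± 0.25 SE, adjusted p 0.0290, limma). Deptor read 24.1, 19.6 and 14.6 in the floxed regions, against 34.8, 45.6 and 42.7 in the control regions, and was not called. Like Gas1, all of these 5 genes were lower in every floxed region than in any control region, which the choice by likeness makes nearly certain. Of the other Hedgehog genes Cdon was the nearest to Gas1, at 0.65 and rank 740, followed by Smo at 0.83, Boc at 0.94 and Ptch1 at 1.08. Hhip and Gli1 were below the negative probe in at least 1 region and were not ranked.

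**Figure D4:**
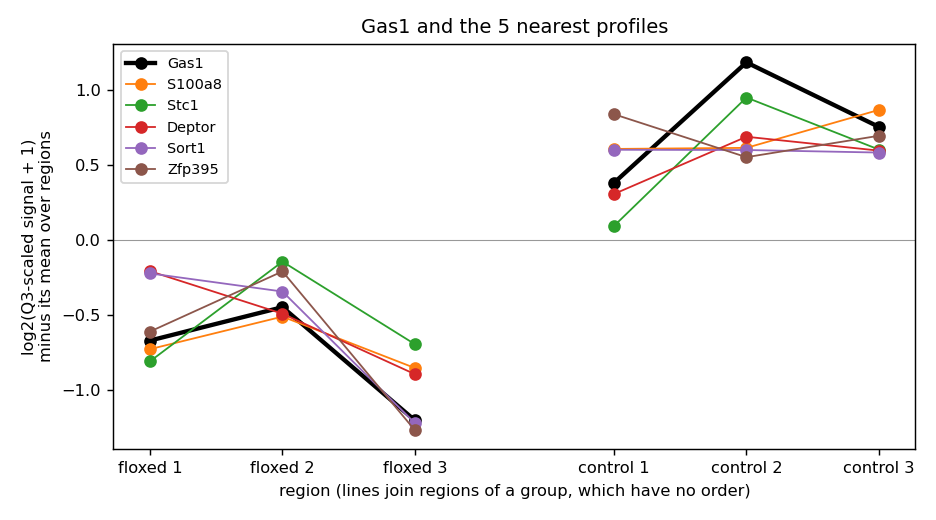
Log2(Q3-scaled signal + 1) of Gas1 (black) and the 5 targets with the nearest profile, each minus its own mean over the 6 regions, in the 3 floxed (left) and 3 control (right) regions. All 6 profiles lie below their mean in the floxed and above it in the control regions, with root mean square differences from Gas1 of 0.29 to 0.34.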

How the data were processed

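Frozen tumour sections, fixed in formalin, were probed with the mouse whole transcriptome set, and the released tags were amplified by PCR and sequenced, per the labels' protocols. For 13264 targets and a negative probe, the authors deposited signal in 6 regions. The sources used here do not give how the authors counted tags, chose targets or scaled the deposited signal (not stated per the labels). In each column about 99.98% of values lay within 0.01 of a whole multiple of the column's step, but the step could not be shown to be a tag everywhere, so counts were not modelled. The analysis took in all 6 columns and left 0 value columns unused.

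Regions were brought to the same upper quartile (75th percentile) by 1 factor each. All targets were fitted on log2(value + 1) with limma 3.58.1 in R 4.3.3 (lmFit, eBayes with a mean-variance trend), floxed minus control, 3 against 3, with no filter on low values, Benjamini-Hochberg adjustment over all targets and calls at an adjusted p under 0.05. Log2 changes understate those of low genes. No permutation test was run, since with this design the smallest two-sided exact p is 0.1. Intervals are limma's at 95%. The members, gene lists and tests were chosen with earlier results of these data known. Named genes are all members, called genes and otherwise the 3 with the smallest p of each list, the 5 nearest profiles to Gas1, Cd274 and selected markers. Replicates are regions, which may be technical. The fit was run on simulated data with independent normal errors in each region and limma's own spreads. That run cannot show how shared mice, the block of areas or the scaling affect the calls. Alternatives were other scalings, subtraction of the negative probe, a filter at 2 times the negative probe, pseudocounts of 0.5 and 5, variance models, a threshold of 0.1 and leaving out each region, and ratios to fibroblast markers, which were added after seeing the data. Promoter sequences are RefSeq's, on GRCm38.p6, and 5 of 7 genes matched. Plots were made in Python 3.11.15 with matplotlib 3.10.9.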

Additional observations from a re-analysis of the deposited data

How the results depend on the processing

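The log2 change of Gas1 ran from -2.80 as deposited to -0.94 as a ratio to fibroblast markers over 19 alternatives. The choice of Gas1 on these values fixes that direction. Ratios to fibroblast markers enter here as differences between group means of log2 ratios, without a pseudocount or a fit. They are therefore not the ratios of group means given above. Gas1 was not called without a mean-variance trend (where limma called 0 of all targets) and without floxed region 3 or any control region. The count of Hedgehog genes called lower, 1, became 5 as deposited, 0 without the trend, and 0 to 1 with a region left out. Wider pathway genes called lower were 59 as deposited, 2 with region weights (Csnk1e and Spp1), 1 at a threshold of 0.1 (Csnk1e) and 0 to 2 with a region left out, and those called higher 0 to 1. Boc turned sign as deposited (-1.08), with quantile (-0.063) and negative-probe scaling (-0.040), relative to fibroblast markers without collagens (-0.071) and with a region left out (-0.10 to 0.29). Ptch1 turned as deposited (-0.83), Gli1 as deposited (-0.53) and with region weights (-0.0022), and Smo relative to all fibroblast markers (0.21). The causes of these sign changes were not tested. The median of all targets was -1.22 as deposited and 0.02 on the main scale. Leaving out a region moved Gli1 between 0.30 and 1.26 and Ptch1 between 0.24 and 0.58. The filter at 2 times the negative probe removed Hhip and Gli1. Values of these genes in the floxed regions stood at only 4 to 25 steps, so they are coarse. No paired analysis was possible because no label pairs regions across the groups.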
